A study of Mus musculus with 13 samples.

Results

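Binding of the glucocorticoid receptor (GR) and of its corepressor NCOR1 was examined at 10 acute phase genes of mouse liver, namely Saa1, Saa2, Saa4, Orm1, Orm2, Hp, Lcn2, Crp, Il6ra and Stat3. The data were ChIP-seq peak lists, in which DNA bound by the protein is recovered with an antibody, sequenced and summarised as peaks of 200 bp. A peak was assigned to 1 of the 10 genes when its centre lay inside that gene body, or within 100 kb of it with no other protein-coding gene body nearer. By this rule 175 of the 217044 peaks in 7 lists belonged to the acute phase genes, and merging peaks that overlapped by at least 1 bp gave 46 sites. GR peaks were called at 38 of the 46 sites and NCOR1 peaks at 36, and 28 sites held both.

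All livers came from male mice and were collected at zeitgeber time (ZT) 10, which was 2 h after an intraperitoneal injection at ZT8. GR was profiled in dKO livers after dexamethasone, in dKO livers after vehicle, in control livers after dexamethasone and in control livers after vehicle, with 2 libraries in each group. NCOR1 was profiled in dKO livers after vehicle (1 library), in control livers after dexamethasone (2 libraries) and in control livers after vehicle (1 library), and 1 input library came from control vehicle liver. Dexamethasone, a synthetic glucocorticoid that activates GR, was given at 1 mg/kg, and the design text names saline as the vehicle. The dKO animals lacked NCOR1, though not NCOR1 alone, and the genotype label reads CRE for them and GFP for the controls. The labels do not say which liver cells carried the deletion, how the Cre or GFP construct was driven, or how old the animals were. Whole liver was used, so weaker binding per cell and fewer bound cells of a type cannot be told apart.

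Every list pooled the libraries of its group. A value below is therefore 1 number per group with no spread between animals, and no difference between groups was tested. The value compared is the normalized tag count of a peak, in tags per 10 M mapped tags (M for 10 to the power of 6), called the tag count from here on. A ratio of 2 tag counts carries a 95% interval from an exact binomial calculation on the tags, which covers counting error only. The lists rested on 27.5 to 31.9 M tags for GR and on 17.5 to 36.9 M for NCOR1, and the lowest tag count among member peaks was 5.33 for GR and 5.42 for NCOR1. A missing peak means that a list's threshold was not met, and binding below that threshold would go unseen.

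The acute phase response is the change in plasma proteins that the liver makes during infection, injury or stress. Interleukin-6 binds its receptor IL6RA, the shared subunit gp130 and JAK kinases relay the signal, and phosphorylated STAT3 then acts on liver genes together with C/EBP factors. Glucocorticoids strengthen the response at many of these genes, and GR, STAT3 and C/EBP proteins are known to occupy common enhancers in hepatocytes. SAA1 and SAA2 are inducible apolipoproteins of high-density lipoprotein, SAA4 is made constitutively, ORM1 and ORM2 are the orosomucoids (alpha-1-acid glycoproteins), and HP (haptoglobin) captures free haemoglobin. LCN2 binds bacterial siderophores and limits iron, and CRP, a pentraxin that is a major acute phase protein in humans, is only a minor one in the mouse.

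The promoters that carried peaks show how alike these genes are in sequence and which motif letters they hold. RefSeq sequences on the GRCm38.p6 assembly, the one that mm10 names, were matched for 8 of the 10 genes, all but Orm1 and Hp. The lines below give 5′ to 3′ the 250 bases before the start of Saa1 (chr7:46742981-46743230, minus strand), Saa2 (chr7:46751583-46751832, plus strand), Orm2 (chr4:63362199-63362448, plus strand) and Stat3 (chr11:100939541-100939790, minus strand). Saa1 and Saa2 are shown because their promoters are near copies, Orm2 because all 4 of its GR peaks lie wholly over it, and Stat3 because NCOR1 was called there in every list. Capitals mark matches to the motifs searched.
Saa1: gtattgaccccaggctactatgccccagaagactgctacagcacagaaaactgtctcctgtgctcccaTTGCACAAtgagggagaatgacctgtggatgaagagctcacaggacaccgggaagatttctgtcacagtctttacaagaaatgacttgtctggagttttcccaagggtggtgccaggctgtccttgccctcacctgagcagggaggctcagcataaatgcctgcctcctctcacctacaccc
Saa2: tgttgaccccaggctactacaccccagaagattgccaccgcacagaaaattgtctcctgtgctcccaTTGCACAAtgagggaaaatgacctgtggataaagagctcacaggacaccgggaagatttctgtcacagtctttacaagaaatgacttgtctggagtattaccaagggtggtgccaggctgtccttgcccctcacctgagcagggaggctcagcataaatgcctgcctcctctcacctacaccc
Orm2: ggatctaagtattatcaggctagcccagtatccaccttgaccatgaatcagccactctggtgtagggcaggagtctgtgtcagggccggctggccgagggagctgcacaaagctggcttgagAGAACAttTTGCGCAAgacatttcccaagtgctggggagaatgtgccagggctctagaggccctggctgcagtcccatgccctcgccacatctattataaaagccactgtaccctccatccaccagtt
Stat3: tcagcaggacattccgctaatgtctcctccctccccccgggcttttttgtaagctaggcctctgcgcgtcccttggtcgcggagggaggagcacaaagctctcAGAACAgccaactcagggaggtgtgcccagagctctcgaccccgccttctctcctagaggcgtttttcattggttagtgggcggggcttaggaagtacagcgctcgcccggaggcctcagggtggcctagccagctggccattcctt

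Motifs were searched on both strands of the window from 250 bases before to 50 after the start. The C/EBP motif TTGCNNAA was present in 10.8% of 32851 mouse promoters and in those of Saa1, Saa2, Saa4, Orm2 and Lcn2. It reads TTGCACAA from base -182 in Saa1 and from base -183 in Saa2, counted backwards from the base just before the start. In Orm2 it reads TTGCGCAA from base -120, a palindrome that matches on both strands. The hexamer AGAACA, part of the sequence GR binds, occurred in 19.0% of all promoters and in those of Orm2 from base -128, Crp from base -147 and Stat3 from base -147. The palindromic GR element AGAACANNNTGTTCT (0.00913% of promoters) and the STAT motif TTCNNNGAA (8.30%) were not among the letters of any of the 8 windows. The element core ACANNNTGT (6.85%), which lies within the palindromic element, matched in Lcn2 alone of the 8.

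The Saa1 and Saa2 windows were identical at 287 of 301 aligned positions (95.3%), with an unbroken shared run of 65 bases. Saa1 and Saa4 agreed at 44.0% of aligned positions, and Orm2 and its neighbour Orm3 at 86.2%. How reads that match more than 1 of these copies were placed is not given in the sources used here. Values at the Saa1 and Saa2 promoters and at the Orm genes are therefore uncertain as to which copy the tags came from.

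At the acute phase genes GR had peaks at many sites after vehicle as well as after the drug and in both genotypes, and the tag count was highest in control liver after dexamethasone. The lists held 26 member peaks for GR in dKO dexamethasone liver, 21 in dKO vehicle, 35 in control dexamethasone and 25 in control vehicle. Their median tag count was 23.35, 16.4, 39.5 and 23.1 tags per 10 M in the same order, against 10.7, 12.2, 12.2 and 13.1 for all assigned peaks of those lists. Of the 38 GR sites, 17 had a peak in all 4 GR lists, and among these 14 were highest in control dexamethasone liver and 14 were lowest in dKO vehicle liver. The peaks lay mostly outside the gene bodies: in control dexamethasone liver 31.4% of member GR peaks lay inside a gene, against 62.1% of all assigned peaks of that list. Apart from Il6ra (43.9 kb) and Stat3 (52.8 kb), the member gene bodies were short, 1.91 to 4.61 kb. The part of gene length in the share inside a gene was not tested. Of the 46 sites, 13 lay inside a gene, 13 within 1000 bp outside one and 3 more than 20 kb away, all 3 of them near Crp.

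**Figure D1:**
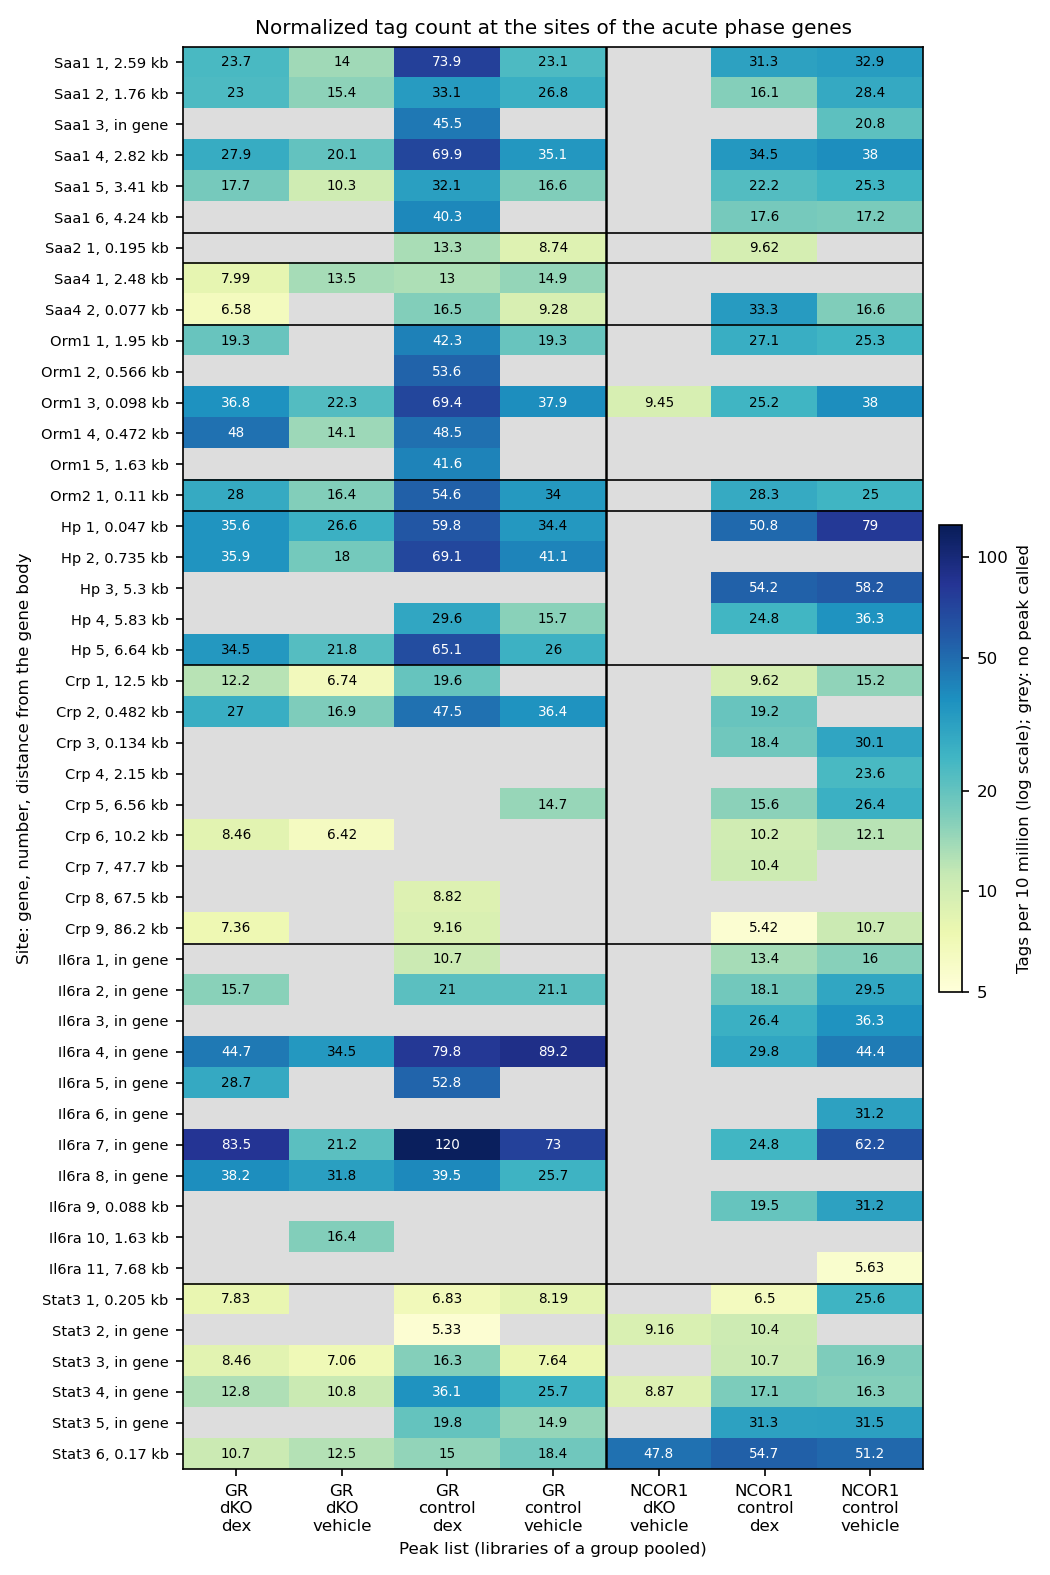
Normalized tag count (tags per 10 M, log colour scale) of the 46 sites in the 4 GR lists and the 3 NCOR1 lists; sites are numbered within each gene from low to high coordinate, with their distance from the gene body, and grey means that no peak was called. The column of control dexamethasone GR is the darkest of the GR columns at most sites, up to 119.7 at Il6ra site 7, and the NCOR1 dKO column holds 4 peaks.

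In control liver, GR tag counts at the acute phase genes were mostly higher after dexamethasone than after vehicle. Peaks in both lists were found at 24 sites, of which 19 had the higher tag count after dexamethasone and 5 the lower, whereas 54.4% of the 21830 shared sites of all protein-coding genes were higher. The median ratio was 1.62-fold over the 24 sites (0.815 to 3.2) and 1.06-fold over all shared sites. Part of that gap went with peak strength: among shared sites that averaged at least 20 tags per 10 M the medians were 1.68-fold at 17 member sites and 1.44-fold at all 5711. Ratios of at least 2-fold with an interval above 1 were found at 4 of the 24 sites, against 11.6% of all shared sites. These were Saa1 site 1 at 3.2-fold (2.41 to 4.3), Hp site 5 at 2.5-fold (1.9 to 3.33), Orm1 site 1 at 2.19-fold (1.58 to 3.08) and Stat3 site 3 at 2.13-fold (1.26 to 3.75). No member site was at least 2-fold lower, against 2.20% of all. Marker genes of cell types differed in the same comparison, with a median log2 ratio of 0.31 at hepatocyte markers (31 of 37 shared sites higher), 0.65 at endothelial and stellate markers (13 of 19), -0.48 at Kupffer cell and leukocyte markers (1 of 5) and -0.52 at neuronal genes, for a tissue not sampled (7 of 19). On that scale the acute phase genes had 0.70, and the part of cell makeup in it was not tested.

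Of the 35 member GR peaks in control dexamethasone liver, 11 (31.4%) had no peak in control vehicle liver, against 40.3% of all assigned peaks. The strongest of them were Orm1 site 2 at 53.6, Il6ra site 5 at 52.8 and Orm1 site 4 at 48.5 tags per 10 M. With peaks of at least 20 tags per 10 M only, 6 of 23 lacked a vehicle peak, against 19.3% of all such peaks. Among the 25 member peaks of control vehicle liver, Crp site 5 at 14.7 tags per 10 M alone had no peak after dexamethasone, against 18.9% of all assigned peaks, and none of the 14 vehicle peaks of at least 20 tags per 10 M did, against 3.94%.

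The dKO livers showed the same order between drug and vehicle at most of the sites they shared. Of 20 sites with a GR peak in both dKO lists, 18 had the higher tag count after dexamethasone and 2 the lower, against 47.2% higher among all 16151 shared sites. The median ratio was 1.54-fold (0.592 to 3.94), against 0.953-fold over all, and 1.6-fold against 1.47-fold when only shared sites averaging at least 20 tags per 10 M were taken (11 member sites and 2535 in all). Il6ra site 7 at 3.94-fold (3.0 to 5.24) and Orm1 site 4 at 3.4-fold (2.42 to 4.88) were the 2 sites at or above 2-fold with an interval above 1, against 7.79% of all shared sites, and no member was 2-fold lower, against 8.06%. The same marker lists had median log2 ratios of 0.54 (hepatocyte), 0.43 (endothelial and stellate), -0.71 (Kupffer cell and leukocyte) and -0.56 (neuronal) in dKO liver, against 0.62 for the acute phase genes. Peaks without a counterpart in dKO vehicle liver numbered 6 of 26 (23.1%), against 36.1% of all assigned peaks. Of the dexamethasone peaks of at least 20 tags per 10 M, 1 of 14 lacked a vehicle peak, against 16.9% of all such peaks. In the other direction 1 of 21 dKO vehicle peaks (4.76%), Il6ra site 10, had no peak after dexamethasone, against 22.2%, and 0 of 7 strong ones, against 4.12%. The strongest 3 of the 6 peaks seen after dexamethasone alone were Il6ra site 5 at 28.7, Orm1 site 1 at 19.3 and Il6ra site 2 at 15.7 tags per 10 M.

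At the 17 sites called in all 4 GR lists, the ratio of dexamethasone to vehicle could be set side by side in both genotypes. It was higher in dKO liver at 7 sites and higher in control liver at 10. Saa1 site 1 had a ratio of 1.69 (1.15 to 2.52) in dKO liver and 3.2 (2.41 to 4.3) in control liver. Il6ra site 7 had the reverse order, with 3.94 (3.0 to 5.24) in dKO liver and 1.64 (1.38 to 1.96) in control liver. The intervals of the 2 genotypes overlap narrowly at Saa1 site 1 and do not overlap at Il6ra site 7, and they cover counting error only.

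**Figure D2:**
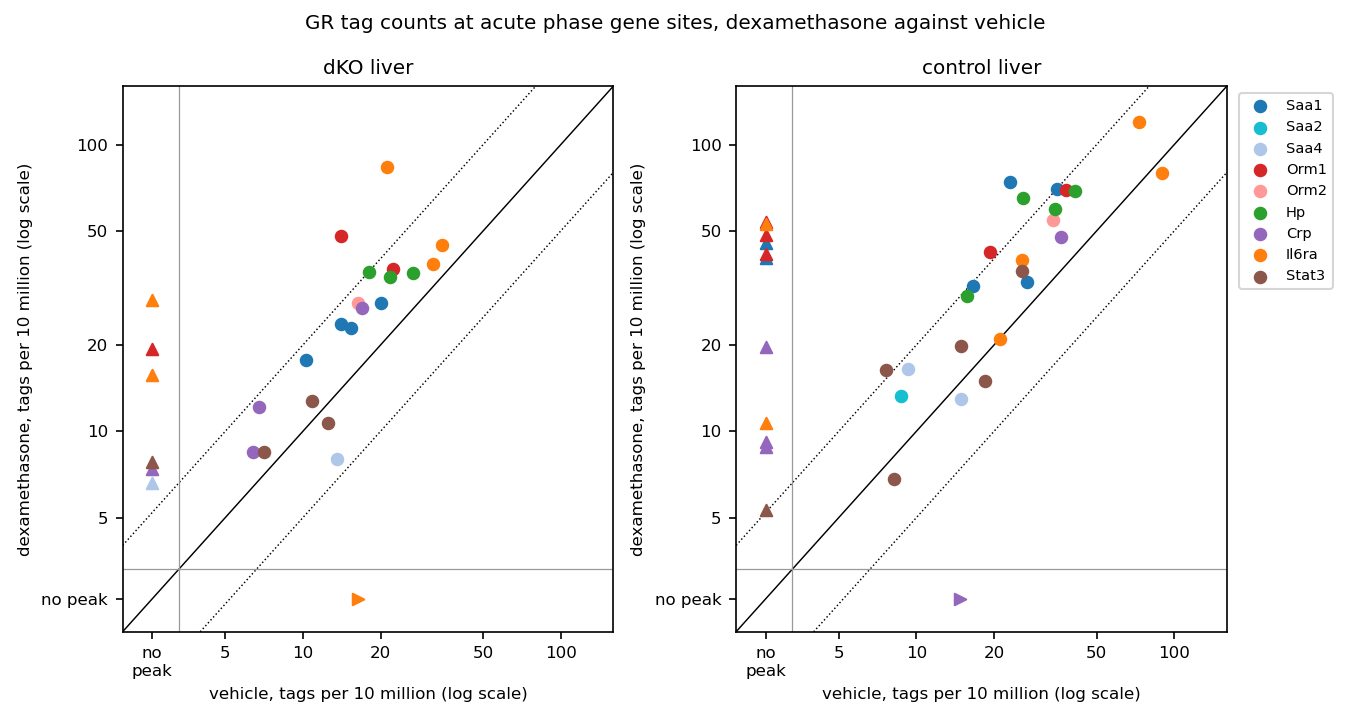
GR tag counts after dexamethasone (vertical, log scale) against vehicle (horizontal, log scale) in dKO liver (left) and control liver (right); each point is a site, coloured by gene, the solid line marks equal counts, dotted lines mark 2-fold, and triangles are sites called in 1 list of the pair alone. Of the shared sites, 18 of 20 in dKO liver and 19 of 24 in control liver lie above the solid line.

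Between genotypes, GR tag counts at the acute phase genes were lower in dKO liver than in control liver under either treatment. After vehicle, 17 sites had peaks in both genotypes, and dKO was higher at 1 (Il6ra site 8, 1.24-fold, 0.903 to 1.7) and lower at 16, whereas 30.8% of all 17224 shared sites were higher in dKO. The median dKO to control ratio was 0.588, against 0.869 over all, and among shared sites averaging at least 20 tags per 10 M it was 0.573 at 11 member sites, against 0.822 at 4240. Ratios at or under 0.5 with an interval below 1 were found at 6 of 17 sites, against 7.65% of all. They were Il6ra site 7 at 0.29 (0.216 to 0.385), Il6ra site 4 at 0.387 (0.305 to 0.487), Stat3 site 4 at 0.42 (0.27 to 0.642), Hp site 2 at 0.438 (0.312 to 0.608), Crp site 2 at 0.464 (0.326 to 0.655) and Orm2 site 1 at 0.482 (0.336 to 0.686). No member was 2-fold higher, against 0.145% of all. Stronger peaks meet the interval rule more easily, and shares of these calls were not taken at like strength in any comparison.

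Peaks seen in dKO vehicle liver alone numbered 4 of 21 (19.0%), against 17.1% of all assigned peaks, and those seen in control vehicle liver alone 8 of 25 (32.0%), against 36.0%. Neither share stood far from its background. Among peaks of at least 20 tags per 10 M, 0 of 7 were in dKO alone, against 0.957% of all, and 1 of 14 in control alone, against 7.88%. The 4 dKO peaks were Il6ra site 10 at 16.4, Orm1 site 4 at 14.1, Crp site 1 at 6.74 and Crp site 6 at 6.42 tags per 10 M. The strongest control peaks without a dKO counterpart were Il6ra site 2 at 21.1 and Orm1 site 1 at 19.3 tags per 10 M.

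After dexamethasone, 25 sites were shared between genotypes, and dKO was higher at 1 (Stat3 site 1, 1.15-fold, 0.614 to 2.16) and lower at 24, against 16.2% higher among all 21931 shared sites. The median ratio was 0.56, against 0.743 over all shared sites. At sites averaging at least 20 tags per 10 M the medians drew closer, 0.544 over 17 member sites and 0.615 over 5333. Saa1 site 1 at 0.321 (0.244 to 0.418), Stat3 site 4 at 0.355 (0.241 to 0.513), Saa4 site 2 at 0.399 (0.227 to 0.677), Saa1 site 4 at 0.399 (0.308 to 0.514) and Orm1 site 1 at 0.456 (0.331 to 0.623) were the 5 sites at or under 0.5 with an interval below 1, against 12.1% of all, and no member was 2-fold higher, against 0.310%. At the other end of the range stood Orm1 site 4 at 0.99 (0.784 to 1.25) and Il6ra site 8 at 0.967 (0.745 to 1.26), whose intervals include 1.

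Of the member peaks after dexamethasone, 10 of 35 in control liver (28.6%) had no dKO peak, against 40.0% of all, and 1 of 26 in dKO liver (3.85%), Crp site 6, had no control peak, against 13.2%. Counting only control peaks of at least 20 tags per 10 M, 5 of 23 had no dKO peak, against 12.2% of all, while 0 of 14 such dKO peaks lacked a control peak, against 2.21%. The 5 control peaks were Orm1 site 2 at 53.6, Saa1 site 3 at 45.5, Orm1 site 5 at 41.6, Saa1 site 6 at 40.3 and Hp site 4 at 29.6 tags per 10 M. Orm1 site 2 lay 477 bp and Hp site 4 lay 803 bp from the nearest dKO peak, both assigned to the same genes.

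The lower dKO tag counts were not peculiar to these genes, since all shared sites had medians under 1 as well. The share of all tags that fell in called peaks was 4.11% in dKO dexamethasone, 3.4% in dKO vehicle, 7.23% in control dexamethasone and 5.0% in control vehicle liver, and its part in the member ratios was not tested. The ratio between genotypes differed among marker genes of cell types. At 10 hepatocyte marker genes the median log2 ratio of dKO to control was -0.96 after vehicle (25 shared sites) and -0.80 after dexamethasone (40 shared sites). At 10 endothelial and stellate cell marker genes it was -0.13 (14 shared sites) and -0.72 (20 shared sites), and at 10 neuronal genes, for a tissue not sampled, -0.09 (17 shared sites) and -0.40 (19 shared sites). At 12 Kupffer cell and leukocyte markers it was 0.10 after vehicle, with 3 of 5 shared sites higher in dKO, and -0.15 after dexamethasone, with 1 of 5 higher. The acute phase genes had -0.77 and -0.84 on the same scale, and what part cell makeup has in these values was not tested. Of the 12 Kupffer cell and leukocyte markers, 4 had a GR peak in control dexamethasone liver, against 9 of the 10 hepatocyte markers.

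**Figure D3:**
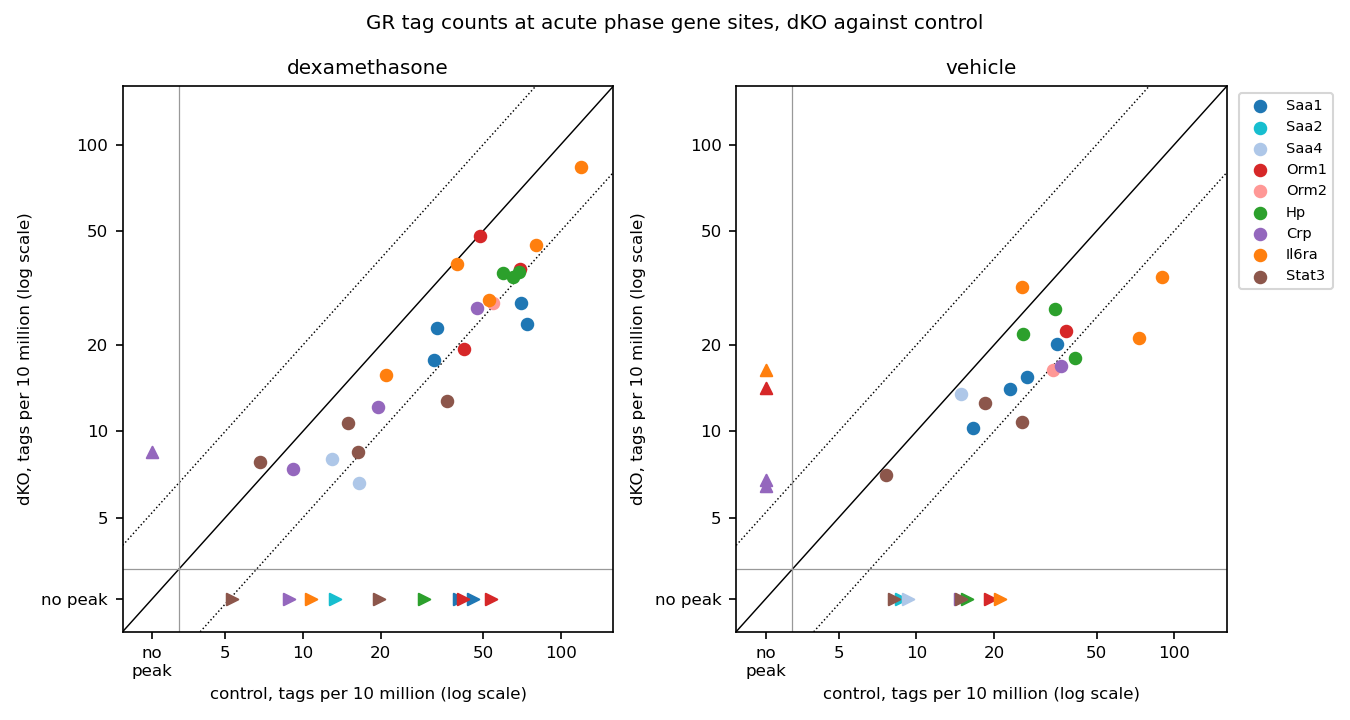
GR tag counts in dKO liver (vertical, log scale) against control liver (horizontal, log scale) after dexamethasone (left) and after vehicle (right); each point is a site, coloured by gene, the solid line marks equal counts, dotted lines mark 2-fold, and triangles are sites called in 1 genotype alone. Of the shared sites, 24 of 25 after dexamethasone and 16 of 17 after vehicle lie below the solid line.

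NCOR1 was bound at most of these genes in control liver, and nearly all of its peaks were missing from the dKO list. Of the 32 member NCOR1 peaks in control vehicle liver, 29 (90.6%) had no dKO peak, against 79.1% of all assigned peaks, and with peaks of at least 20 tags per 10 M 21 of 23 had none, against 78.3%. The dKO list held 4 member peaks, of which 1, Stat3 site 2, had no control vehicle peak, against 52.7% of all dKO peaks. The 1 strong peak among them had a control counterpart, whereas 19.5% of all strong dKO peaks had none. Orm1 site 3 had 9.45 tags per 10 M in dKO and 38.0 in control vehicle liver, a ratio of 0.249 (0.136 to 0.431). It was the only 1 of 3 shared sites at or under 0.5 with an interval below 1, against 30.9% of all shared sites, and none was 2-fold higher, against 7.56%. The other 3 dKO peaks were in Stat3. Its promoter, site 6, had 47.8 tags per 10 M in dKO and 51.2 in control vehicle liver, a ratio of 0.934 (0.685 to 1.27), so the 2 values were within counting error of each other. All 3 shared sites were nominally lower in dKO, and none higher, against 34.0% higher over all shared sites.

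Markers of liver cell types differed in how many NCOR1 peaks each genotype held. At 10 endothelial and stellate markers there were 28 peaks in dKO and 30 in control vehicle liver. Of these, 18 dKO peaks had no control peak and 20 control peaks (66.7%) had no dKO peak, and the 10 shared sites had a median log2 ratio of 1.19. At 10 hepatocyte markers there were 6 peaks in dKO and 69 in control vehicle liver, of which 66 control peaks (95.7%) had no dKO peak. At 12 Kupffer cell and leukocyte markers there was 1 peak in dKO and 4 in control vehicle liver, of which 3 control peaks had no dKO peak. The 10 neuronal genes, for a tissue not sampled, held 3 peaks in dKO and 13 in control vehicle liver, with 0 shared sites. Among all assigned NCOR1 peaks, 79.1% in control vehicle liver and 52.7% in dKO liver were unshared. Over all shared sites the median log2 ratio was -0.39. At the neuronal genes all 13 control vehicle peaks lacked a dKO peak. The part of cell makeup in these shares was not tested. Whether other cells of the liver gave the Stat3 signal was not tested.

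In control liver dexamethasone went with lower NCOR1 tag counts at most member sites, as it did over all sites. Of 28 shared sites 6 were higher and 22 lower after dexamethasone, against 28.2% higher over all 24653, and the median ratio was 0.705 against 0.802. At sites averaging at least 20 tags per 10 M the medians were 0.705 (20 member sites) and 0.73 (10307 in all). The dexamethasone list pools 2 libraries and rests on 2.08 times the tags of the vehicle list, which is 1 library. On the unscaled peak score the direction turned round (median log2 of 0.54). For NCOR1 the share of all tags in called peaks was 2.07% in dKO vehicle, 6.38% in control dexamethasone and 8.52% in control vehicle liver. The part of that share in the NCOR1 ratios was not tested. Saa4 site 2 at 2.01-fold (1.33 to 3.11) was the member at least 2-fold higher, against 1.46% of all, and Stat3 site 1 at 0.254 (0.148 to 0.425) and Il6ra site 7 at 0.399 (0.299 to 0.531) were the 2 at or under 0.5, against 12.1%. Peaks in 1 list alone numbered 4 of 32 after dexamethasone (12.5%), against 29.5% of all, and 4 of 32 after vehicle (12.5%), against 33.1%. With peaks of at least 20 tags per 10 M these counts were 0 of 15, against 5.86% of all, and 3 of 23, against 15.4%.

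GR and NCOR1 shared many of the sites. In control dexamethasone liver 25 of 35 member GR peaks (71.4%) overlapped an NCOR1 peak, against 50.0% of all assigned GR peaks. That difference was not seen among strong peaks, since 15 of 23 member GR peaks of at least 20 tags per 10 M overlapped NCOR1, against 71.4% of all such peaks. In control vehicle liver the count was 19 of 25 (76.0%), against 55.9%, and 10 of 14 for strong peaks, against 53.4%. Read from the other protein, 25 of 32 member NCOR1 peaks (78.1%) in control dexamethasone liver and 19 of 32 (59.4%) in control vehicle liver overlapped GR, against 52.2% and 40.8% of all. For NCOR1 peaks of at least 20 tags per 10 M the counts were 13 of 15, against 72.0% of all, and 16 of 23, against 61.8%. Of the 46 sites, 12 had a peak in all 6 lists other than the NCOR1 dKO list.

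The Saa genes lie side by side on chromosome 7, and Saa1 had the strongest GR sites of the 3 Saa genes among the 10. Saa3, which was not among the 10 genes, had a GR site of 73.1 after dexamethasone and 38.0 after vehicle in control liver. The Saa1 gene body spans chr7:46740497-46743181 on the minus strand. Site 1, at chr7:46737811-46738011 and 2.59 kb beyond the 3′ end of the body, had 23.7 tags per 10 M of GR in dKO dexamethasone, 14.0 in dKO vehicle, 73.9 in control dexamethasone and 23.1 in control vehicle liver. The control dexamethasone value stands far above the other 3, of which dKO vehicle is the lowest. Site 4, at chr7:46745899-46746099 and 2.82 kb upstream of the body, had 27.9 in dKO dexamethasone, 20.1 in dKO vehicle, 69.9 in control dexamethasone and 35.1 in control vehicle liver. Both sites also carried NCOR1 in control liver, with 31.3 after dexamethasone and 32.9 after vehicle at site 1, and 34.5 and 38.0 at site 4.

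The Saa1 promoter itself, site 3, showed a GR peak of 45.5 tags per 10 M in control dexamethasone liver and none in the other 3 GR lists. That peak, at chr7:46743039-46743239, covered 191 bases of the promoter window and was centred at base -159, over the printed sequence that holds TTGCACAA. By the gene body used for assignment, which extends further upstream than the start behind base -159, that centre lies inside Saa1. NCOR1 had a peak of 20.8 tags per 10 M at this site in control vehicle liver alone. Site 6, 4.24 kb upstream of the body, likewise had GR in control dexamethasone liver alone, at 40.3, with its nearest GR peak 837 bp away in dKO dexamethasone liver and 821 bp away in control vehicle liver. Sites 2 and 5 had GR in all 4 lists, between 10.3 and 33.1 tags per 10 M, highest in control dexamethasone liver at both. Over the 4 shared sites of Saa1 the median ratio of dexamethasone to vehicle in control liver was 1.96-fold.

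**Figure D4:**
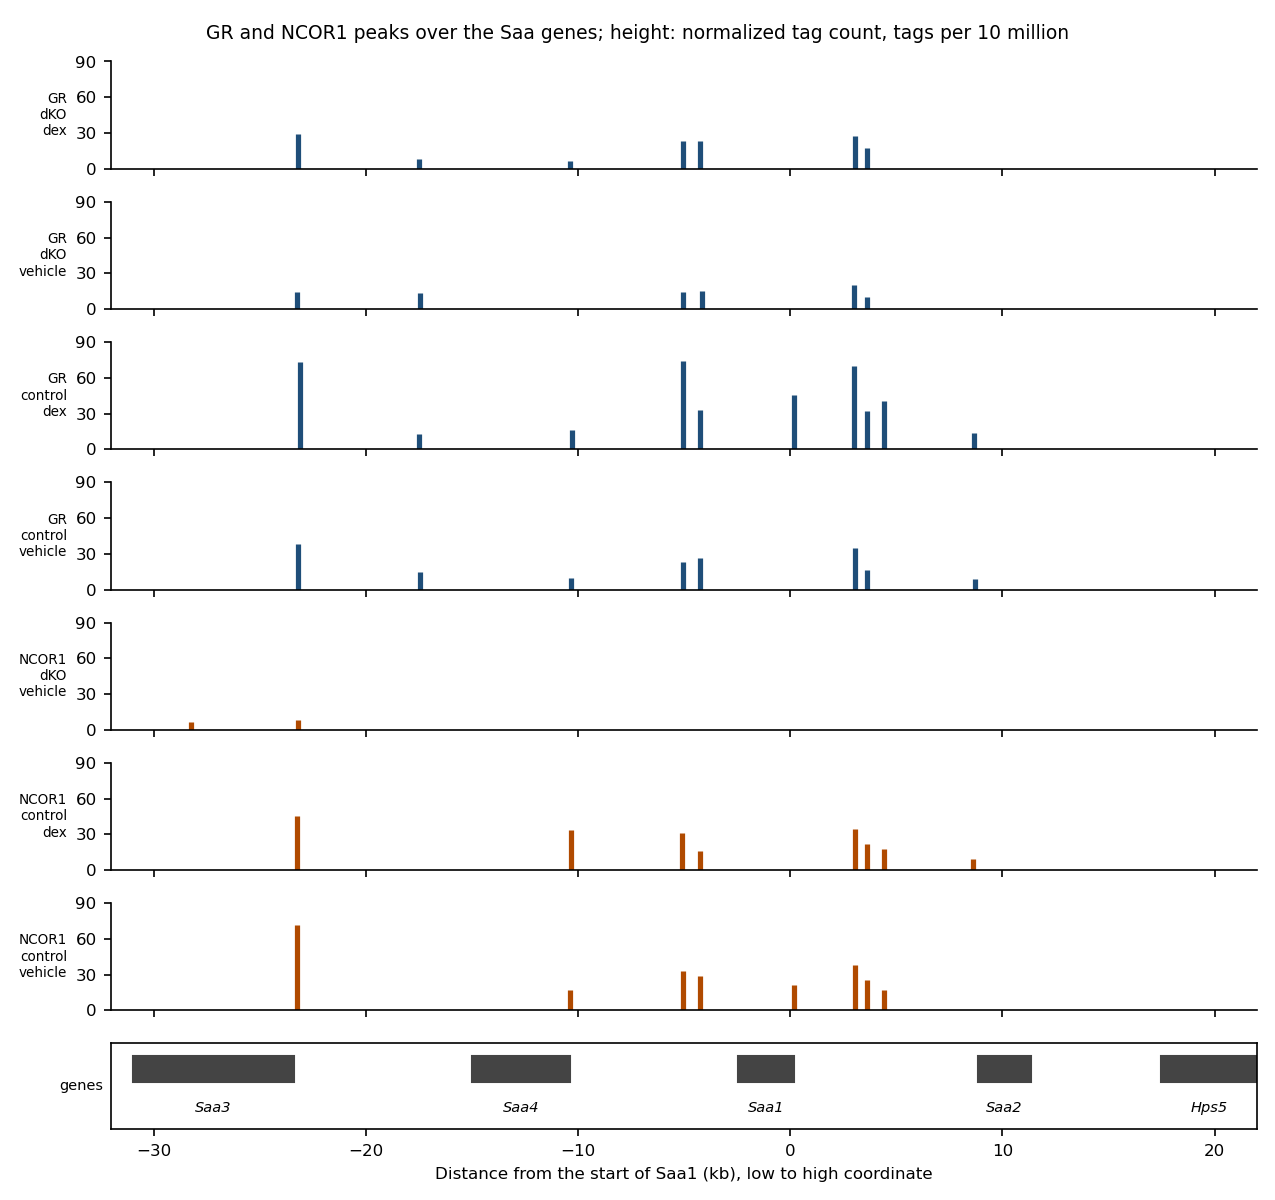
Peaks of each list over the Saa genes as bars at their distance from the Saa1 start (kb, low to high coordinate), with height the normalized tag count (tags per 10 M) and gene bodies at the bottom. Beside Saa1 the tallest bars are those of control dexamethasone GR, 73.9 and 69.9, and the same list has a bar of 73.1 at Saa3. NCOR1 in dKO liver has no bar from Saa4 to Saa2.

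Saa2, whose promoter differs from that of Saa1 at few positions, had a single weak site under the nearest-gene rule. That rule decides narrowly between Saa1 and Saa2, since Saa1 site 6 lay 4.24 kb from the Saa1 body and 4.41 kb from the Saa2 body. The Saa2 GR tag count 195 bp upstream of the start was 13.3 in control dexamethasone and 8.74 in control vehicle liver, with no peak in either dKO list. NCOR1 had 9.62 there in control dexamethasone liver. Saa4, the constitutive member, had GR of 7.99 in dKO dexamethasone, 13.5 in dKO vehicle, 13.0 in control dexamethasone and 14.9 in control vehicle liver at site 1, where the dKO dexamethasone value is the lowest of the 4. At its promoter, site 2, centred 77 bp before the start, GR had 6.58 in dKO dexamethasone, no peak in dKO vehicle, 16.5 in control dexamethasone and 9.28 in control vehicle liver. NCOR1 at that promoter had 33.3 after dexamethasone and 16.6 after vehicle in control liver. Both proteins were thus higher there after the drug in control liver, with ratios of 1.78 (1.08 to 2.99) for GR and 2.01 (1.33 to 3.11) for NCOR1.

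The Orm genes form a cluster on chromosome 4, and Orm1 (chr4:63344556-63348163) held 5 GR sites within 2 kb of its body. Site 3, 98 bp from the low-coordinate end of the gene, had GR of 36.8 in dKO dexamethasone, 22.3 in dKO vehicle, 69.4 in control dexamethasone and 37.9 in control vehicle liver. NCOR1 there had 9.45 in dKO vehicle, 25.2 in control dexamethasone and 38.0 in control vehicle liver. Site 4, 472 bp beyond the high-coordinate end at chr4:63348535-63348735, had GR of 48.0 in dKO dexamethasone, 14.1 in dKO vehicle and 48.5 in control dexamethasone liver, with no peak in control vehicle liver and no NCOR1 in any list. It was the Orm1 site at which the genotypes differed least after the drug.

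The other 3 Orm1 sites were strongest, or found alone, in control dexamethasone liver. Site 1 had 19.3 in dKO dexamethasone, 42.3 in control dexamethasone and 19.3 in control vehicle liver, with no dKO vehicle peak. Sites 2 and 5 had GR in control dexamethasone liver alone, at 53.6 and 41.6 tags per 10 M. Site 2 lies 440 bp from the nearest control vehicle peak, which belongs to site 3, and the control dexamethasone list holds a peak at both sites.

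Orm2 had 1 site, and its peak lay wholly inside the window of 250 bases before to 50 after the start in all 6 lists that held one. GR had 28.0 in dKO dexamethasone, 16.4 in dKO vehicle, 54.6 in control dexamethasone and 34.0 in control vehicle liver, and NCOR1 had 28.3 after dexamethasone and 25.0 after vehicle in control liver. The control dexamethasone peak at chr4:63362239-63362439 spans the adjoining AGAACA and TTGCGCAA letters. The drug ratio was 1.71 (1.2 to 2.46) in dKO liver and 1.61 (1.24 to 2.09) in control liver, which overlap closely. The neighbouring Orm3, which was not among the 10 genes, had a shared GR site of 72.4 after dexamethasone and 10.4 after vehicle in control liver.

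**Figure D5:**
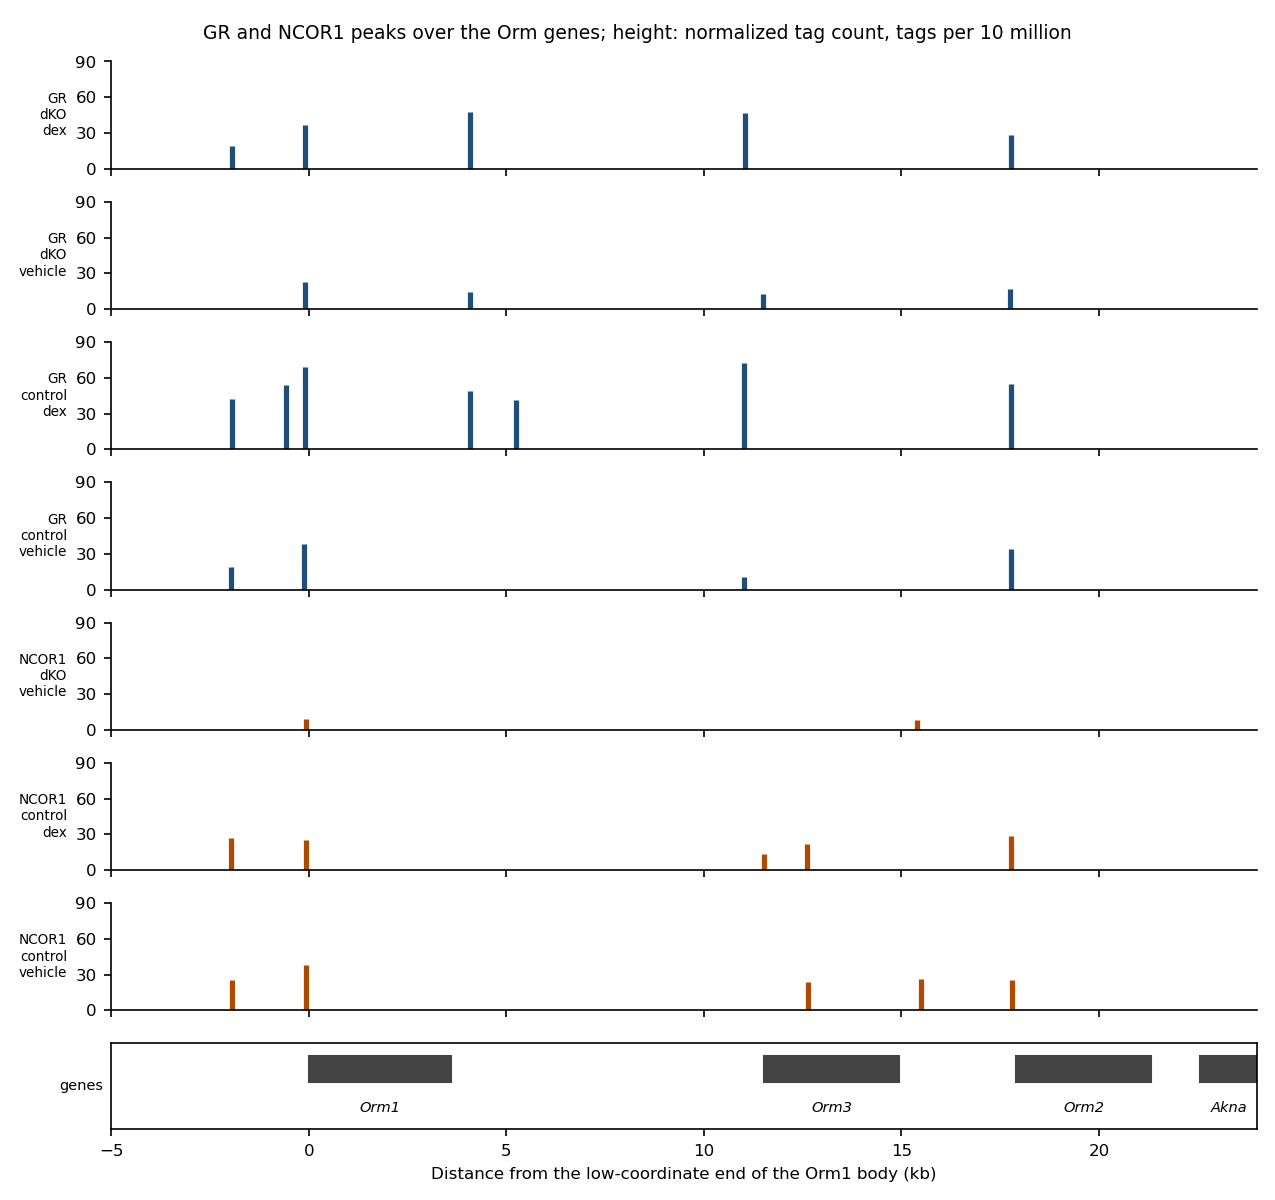
Peaks of each list over the Orm genes as bars at their distance from the low-coordinate end of Orm1 (kb), with height the normalized tag count (tags per 10 M) and gene bodies at the bottom. Control dexamethasone GR shows all 5 Orm1 sites, dKO dexamethasone GR shows 3 of them, and the bar at Orm1 site 4 is about as tall in both, 48.0 and 48.5.

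Hp, on chromosome 8, had 5 sites from 47 bp to 6.64 kb beyond the high-coordinate end of the gene. At site 1, beside the gene, GR had 35.6 in dKO dexamethasone, 26.6 in dKO vehicle, 59.8 in control dexamethasone and 34.4 in control vehicle liver. NCOR1 there had 50.8 after dexamethasone and 79.0 after vehicle in control liver, the latter being the highest NCOR1 tag count at any member site. Site 2 had GR of 35.9, 18.0, 69.1 and 41.1 in dKO dexamethasone, dKO vehicle, control dexamethasone and control vehicle liver, with no NCOR1. Site 5, the farthest, had 34.5, 21.8, 65.1 and 26.0 in the same order, also with no NCOR1. Control dexamethasone is the highest of the 4 at each of these sites. Site 3 carried NCOR1 alone, at 54.2 after dexamethasone and 58.2 after vehicle in control liver, and site 4 had GR in both control lists (29.6 after dexamethasone and 15.7 after vehicle) and in neither dKO list.

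Crp (chr1:172698056-172699966) had 9 sites spread over a larger region, most of them weak. The strongest for GR, site 2 at 482 bp upstream of the start, had 27.0 in dKO dexamethasone, 16.9 in dKO vehicle, 47.5 in control dexamethasone and 36.4 in control vehicle liver. The control values stand above both dKO values, and within each genotype the drug value is the higher. NCOR1 had 19.2 at that site after dexamethasone in control liver. Closer in, 134 bp upstream, site 3 carried NCOR1 alone, with 18.4 after dexamethasone and 30.1 after vehicle. Site 1, 12.5 kb upstream, had GR of 12.2 in dKO dexamethasone, 6.74 in dKO vehicle and 19.6 in control dexamethasone liver. The remaining 6 Crp sites had GR tag counts of at most 14.7 and NCOR1 tag counts of at most 26.4. The farthest peaks of any member were at Crp site 9, 86.2 kb away.

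Lcn2 had no peak of its own in any of the 7 lists. The nearest peaks of each list lay 21.6 to 72.0 kb from its body, had tag counts of 9.65 to 15.5 and were assigned to Ciz1 or Dnm1, which are nearer to them. Its promoter window nevertheless holds the letters TTGCTCAA and ACAGAATGT.

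Il6ra, the receptor gene through which hepatocytes sense interleukin-6, had the most sites, 11, and the strongest GR peak of the 10 genes. Its body is chr3:89869324-89913196 on the minus strand, 43.9 kb long, and 8 of its sites lie inside it. Site 7, 2.95 kb inside the start at chr3:89910149-89910349, had GR of 83.5 in dKO dexamethasone, 21.2 in dKO vehicle, 119.7 in control dexamethasone and 73.0 in control vehicle liver. The dKO vehicle value stands far below the other 3, and with 119.7 the peak was among the top 0.867% of its list by tag count. NCOR1 there had 24.8 after dexamethasone and 62.2 after vehicle in control liver.

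Site 4 of Il6ra, 11.6 kb inside the start, was the other strong site and had a different order. GR had 44.7 in dKO dexamethasone, 34.5 in dKO vehicle, 79.8 in control dexamethasone and 89.2 in control vehicle liver, so that control exceeded dKO under both treatments and the drug and vehicle values of control liver were near each other. NCOR1 had 29.8 after dexamethasone and 44.4 after vehicle in control liver. Site 8, 486 bp inside the start, had 38.2, 31.8, 39.5 and 25.7 in dKO dexamethasone, dKO vehicle, control dexamethasone and control vehicle liver, with little between genotypes and no NCOR1. Site 5 was called after dexamethasone in both genotypes, at 28.7 in dKO and 52.8 in control liver, and in neither vehicle list. At the promoter, site 9, NCOR1 had 19.5 after dexamethasone and 31.2 after vehicle in control liver and GR had no peak. Sites 3, 6 and 11 also held NCOR1 alone, between 5.63 and 36.3 tags per 10 M, and site 10 held GR in dKO vehicle liver alone.

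Stat3, which encodes the transcription factor downstream of the receptor, had weaker GR sites than Il6ra and strong NCOR1 at its promoter. Its body is chr11:100886806-100939594 on the minus strand, 52.8 kb long. The highest GR site, site 4 at 7.94 kb inside the start, had 12.8 in dKO dexamethasone, 10.8 in dKO vehicle, 36.1 in control dexamethasone and 25.7 in control vehicle liver. Both control values stand above both dKO values, and NCOR1 there had 8.87 in dKO vehicle, 17.1 in control dexamethasone and 16.3 in control vehicle liver. At the promoter, site 6, GR had 10.7, 12.5, 15.0 and 18.4 in dKO dexamethasone, dKO vehicle, control dexamethasone and control vehicle liver. The drug values were the lower in both genotypes, with ratios of 0.856 (0.524 to 1.39) in dKO and 0.815 (0.533 to 1.24) in control liver that include 1. NCOR1 had 47.8 in dKO vehicle, 54.7 in control dexamethasone and 51.2 in control vehicle liver at the same site, the smallest spread of any NCOR1 site called in all 3 lists.

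The other 4 Stat3 sites were weak for GR. Site 3 had 8.46 in dKO dexamethasone, 7.06 in dKO vehicle, 16.3 in control dexamethasone and 7.64 in control vehicle liver. Site 5, 1.19 kb inside the start, had GR in control liver alone, at 19.8 after dexamethasone and 14.9 after vehicle, beside NCOR1 of 31.3 and 31.5. Site 1, beyond the 3′ end, had NCOR1 of 6.5 after dexamethasone and 25.6 after vehicle in control liver, and GR of 6.83 to 8.19 in the 3 lists that held it. Site 2 had GR of 5.33 in control dexamethasone liver and NCOR1 of 9.16 in dKO vehicle and 10.4 in control dexamethasone liver.

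Other genes of the response gave a wider view, with 28 further acute phase protein genes and 28 further genes of interleukin-6 and interleukin-1 signalling. Of the acute phase protein genes, Alb, Ttr and Trf were also among the hepatocyte markers above. Among the acute phase proteins, 59 GR sites were shared between dexamethasone and vehicle in control liver. Of these, 44 were higher and 15 lower after the drug, with a median log2 ratio of 0.41. Over all shared sites 54.4% were higher and the median was 0.09. Over all shared sites averaging at least 20 tags per 10 M the median log2 ratio was 0.52, above the value of these genes. The sites of these genes were not taken at like strength. Serpina3k, a serine protease inhibitor gene, had 165.3 after dexamethasone and 112.5 after vehicle. Alb, which encodes the negative acute phase protein albumin, had 203.3 and 182.2 at a site 36.1 kb from its body. Peaks after dexamethasone alone made up 26 of 85 (30.6%), against 40.3% of all assigned peaks, and they included Steap4, a metalloreductase gene, at 46.8 and Fgb, a fibrinogen chain gene, at 29.8.

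Between genotypes after dexamethasone, 54 sites of these acute phase protein genes were shared, 6 higher and 48 lower in dKO. Their median log2 ratio was -0.74, while over all shared sites it was -0.43, with 16.2% higher in dKO. Over all shared sites averaging at least 20 tags per 10 M it was -0.70, near the value of these genes. Of 85 control peaks, 31 (36.5%) had no dKO peak, against 40.0% of all. Itih3, an inter-alpha-trypsin inhibitor chain gene, had a peak of 57.3 in control liver and none in dKO liver at that site. For the signalling genes, 75 sites were shared between drug and vehicle in control liver, 57 higher and 18 lower. The median log2 ratio was 0.30, against 0.09 over all shared sites, of which 54.4% were higher. Over all shared sites averaging at least 20 tags per 10 M it was 0.52. Nfkbia, which encodes the inhibitor of NF-kappaB, had 183.2 after dexamethasone and 154.2 after vehicle inside its body. Cebpb had 132.0 and 62.8 at a site 87.1 kb from its body. After dexamethasone 70 sites of the signalling genes were shared between genotypes, 2 higher and 68 lower in dKO. The median log2 ratio was -0.58, against -0.43 over all shared sites, of which 16.2% were higher, and -0.70 over all shared sites averaging at least 20 tags per 10 M.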

How the data were processed

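GR and NCOR1 ChIP-seq peak lists of mouse liver were used as deposited, 1 list for each of 7 groups. The submitters' processing notes name the mm10 build, HOMER 4.11, BWA 0.7.17, bedtools 2.29.2 and Trim Galore 0.6.4. Per the file headers, findPeaks kept 200 bp peaks that were at least 4-fold over input and over the local 10000 bp, each with a p-value up to 0.0001. The deposited normalized tag count is a signal in tags per 10 M. The deposited findPeaks score follows the tags of the pooled libraries and is not scaled for depth. The deposited fold over input is a ratio computed by the authors, and the deposited p-value of a peak against input is an unadjusted Poisson value, per the file headers. GR libraries were not size selected and NCOR1 and input libraries were, per the labels.

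The members and all gene lists were chosen with earlier results of these data known. Peaks were assigned to the nearest of 21887 protein-coding gene bodies (RefSeq, GRCm38.p6) within 100 kb, and lists were compared by overlap of at least 1 bp. Against bedtools 2.31.1, 0 of 379106 overlap calls differed. Tags per peak were the tag count times the list's tag total, and Clopper-Pearson intervals at 95% were taken on the share of the first list's tags (scipy 1.17.1), which was tested on simulated data. The text names each member's strongest GR and NCOR1 sites, then sites called in 1 list of a pair or differing at least 2-fold with an interval that leaves out 1. Alternatives tried were an overlap of 100 bp, 8-fold over input, a window of 20 kb, lists of equal length, the score and centred ratios. Peaks of at least 20 tags per 10 M, and the score divided by the tag total, were added after seeing the data. Peak sequences and proteins were not analysed here, and the full genotype of the dKO animals is not reported here.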

Additional observations from a re-analysis of the deposited data

Results flagged for a closer look

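Il6ra site 4, 11.6 kb inside the start of the gene, was the 1 site of the 17 called in all 4 GR lists at which the drug ratio lay on opposite sides of 1 in the 2 genotypes. GR had 44.7 tags per 10 M after dexamethasone and 34.5 after vehicle in dKO liver, a ratio of 1.3 (1.0 to 1.68). In control liver it had 79.8 after dexamethasone and 89.2 after vehicle, a ratio of 0.895 (0.746 to 1.07). The difference between genotypes was not tested, since each list pools its libraries, and the control interval includes 1.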

How the results depend on the processing

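Of 88 alternatives over 14 results, 1 turned its direction and 14 moved a count by more than 1.5 times or a median beyond the interval for the median over its sites. The other 73 did neither, though some of them moved a median by more than 1.5 times on the log2 scale. For the NCOR1 median between genotypes, with 3 shared sites, the range of the site ratios was used as the interval. A median could hardly leave that range, so staying within it carries little weight. The median log2 ratio of NCOR1 tag counts in control liver, dexamethasone over vehicle, was -0.50 and became 0.54 on the findPeaks score, which is not scaled for the 2.08 times more tags of the dexamethasone list. Divided by the tag total the score gave -0.51. Centring on all shared sites moved the GR dKO to control median after dexamethasone to -0.41, against -0.84. It gave -0.19, against -0.50, for NCOR1 in control liver and -0.49, against -0.88, for NCOR1 between genotypes, where 8-fold over input also gave -0.49, from 2 shared sites. Requiring 8-fold over input gave 10 dexamethasone-only GR peaks in dKO liver, against 6, 2 dKO-only peaks after vehicle, against 4, and 2 dKO-only peaks after dexamethasone, against 1. Lists of equal length gave 2 dKO-only peaks for GR after dexamethasone and 2 for NCOR1 after vehicle, against 1 each. Keeping peaks of at least 20 tags per 10 M gave 6 dexamethasone-only GR peaks in control liver, against 11, and 1 in dKO liver, against 6. The same setting gave 0 dKO-only GR peaks after vehicle, 0 after dexamethasone, 0 dKO-only NCOR1 peaks and 0 dexamethasone-only NCOR1 peaks, against 4, 1, 1 and 4. It left 15 of the GR peaks with NCOR1 after dexamethasone, against 25, and 10 after vehicle, against 19. These counts fall because fewer peaks enter. No paired analysis was possible because the libraries of a group were pooled in 1 list, and for the same reason no library could be left out. The depth of 17.5 to 36.9 M tags limits the weak peaks most.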
